A study of Mus musculus with 40 samples.

Results

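The genes examined were the 5 that encode the mouse receptors for the constant part of IgG, namely Fcgr1, Fcgr2b, Fcgr3, Fcgr4 and Fcgrt, out of 14318 genes listed for the primary tumors. They were picked out by symbol, with earlier results of these data known. Each was found as 1 row, and none was lost to a filter on low values. The tumors, 39 in all, were taken 5 w p.i. (post-inoculation) from wild-type (WT) female BALB/c mice. While lactating, after their pups had been weaned, these mice had received 4T1-luc or 66cl4-luc cells by intraductal inoculation. Both are luciferase-expressing mouse mammary tumor cell lines used to model triple-negative breast cancer, and each model rests on 1 cell line in 1 mouse strain. In each model, mice stayed untreated or were given chitin, anti-PD-1 or both (chitin + anti-PD-1, called the combination from here on) from 3 w p.i. onwards for 2 w. Chitin particles were given at 1 mg i.p. every 3 d and the antibody at 200 µg i.p. every week. There were 5 tumors per group, except for untreated 4T1, in which the tumors numbered 1, 2, 4 and 5 were analysed. Cells were placed in a pair of mammary glands per mouse, and whether any tumors of a group came from the same mouse is not given in the sources used here, so that p-values measure the spread between tumors. The controls are labelled untreated, so that the presence of an injected IgG and the blockade of PD-1 cannot be told apart in the comparisons with anti-PD-1.

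IgG antibodies act on immune cells through Fc gamma receptors. Fcgr1 (CD64, the high-affinity receptor), Fcgr3 and Fcgr4 are the activating receptors of the mouse, and they sit in the membrane together with the common gamma chain encoded by Fcer1g, which carries the activating signal. Fcgr2b is the inhibitory receptor, found on B cells and myeloid cells, and dampens signals from the activating ones. Fcgrt encodes the heavy chain of FcRn, the neonatal Fc receptor, which pairs with B2m inside endosomes and returns IgG to the circulation instead of letting it be degraded. In tumors, macrophages and other myeloid cells carry most of these receptors, and they are the route by which a therapeutic antibody such as anti-PD-1 can meet a myeloid cell. The antibody used here, anti-mPD-1-mIgG1e3 from clone RMP1-14, has an Fc part engineered by its maker for low Fc receptor binding.

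Of the 5 genes, 3 lie side by side. In the mouse genome build GRCm38, the same assembly as mm10, Fcgr2b (chr1:170960558-170976071, minus strand), Fcgr4 (chr1:171018926-171029761, plus strand) and Fcgr3 (chr1:171051169-171065915, minus strand) cover 105.4 kb of chromosome 1. Fcer1g lies on the same chromosome at chr1:171229572-171234349 on the minus strand. Fcgr1 is on chromosome 3 (chr3:96282909-96293969, minus strand) and Fcgrt on chromosome 7 (chr7:45092993-45103822, minus strand).

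Promoter sequence is shown for the activating receptor genes with the greatest treatment differences, Fcgr1 and Fcgr4, and for the inhibitory Fcgr2b. Each line holds the 250 bases before the annotated gene start in RefSeq (GRCm38.p6), written 5′ to 3′ on the strand of the gene. RefSeq entries were found for all 5 genes. Capitals mark matches to the PU.1 core (GAGGAA, also read on the other strand as TTCCTC), the GAS letters TTCNNNGAA, from the interferon gamma-activated site, and the ISRE letters GAAANNGAA, from the element of interferon-stimulated genes. PU.1 is the transcription factor that macrophages depend on.
Fcgr1, chr3:96293970-96294219, minus strand: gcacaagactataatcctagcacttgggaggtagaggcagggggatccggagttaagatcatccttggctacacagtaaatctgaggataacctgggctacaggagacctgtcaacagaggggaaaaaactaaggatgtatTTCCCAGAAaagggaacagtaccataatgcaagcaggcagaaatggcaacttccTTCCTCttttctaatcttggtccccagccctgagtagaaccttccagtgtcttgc
Fcgr4, chr1:171018676-171018925, plus strand: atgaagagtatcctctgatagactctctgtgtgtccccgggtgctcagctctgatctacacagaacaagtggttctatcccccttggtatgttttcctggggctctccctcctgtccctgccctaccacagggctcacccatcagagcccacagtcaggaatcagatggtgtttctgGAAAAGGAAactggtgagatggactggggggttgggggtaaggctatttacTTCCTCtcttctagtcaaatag
Fcgr2b, chr1:170976072-170976321, minus strand: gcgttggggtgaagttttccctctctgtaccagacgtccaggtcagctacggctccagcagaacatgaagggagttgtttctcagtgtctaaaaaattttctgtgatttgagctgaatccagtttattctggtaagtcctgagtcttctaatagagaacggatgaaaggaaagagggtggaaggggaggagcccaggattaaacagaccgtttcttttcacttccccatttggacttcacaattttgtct

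In these windows, Fcgr1 held a PU.1 core whose first base was at position -55 from the start and GAS letters at -109. The Fcgr4 window held a PU.1 core at -22 and an ISRE match at -73. A PU.1 core was also found before both starts of Fcgr3 that were used, at -6 and -15. Their windows overlap (chr1:171059404-171059653 and chr1:171059395-171059644), and the match is the same site in both. They lie inside the span of Fcgr3 given above, and the sequence before its outer end at 171065915 was not examined. The windows of Fcgr2b and Fcgrt held none of the 3 motifs. However, the GENCODE annotation starts Fcgr2b farther upstream, at 170976547, so that the Fcgr2b window lies within the gene there. The motifs did not overlap each other. Over 32851 promoter windows of the same length, 23.3% held the PU.1 core, 7.0% the GAS letters and 7.1% the ISRE letters. These are matches of letters and no measurement of binding.

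A further sequence bears on how reads were assigned. The coding sequences of Fcgr2b (1020 bases) and Fcgr3 (801 bases) share an identical run of 129 bases, which is bases 278 to 406 of Fcgr2b and 263 to 391 of Fcgr3.
Shared run of Fcgr2b and Fcgr3: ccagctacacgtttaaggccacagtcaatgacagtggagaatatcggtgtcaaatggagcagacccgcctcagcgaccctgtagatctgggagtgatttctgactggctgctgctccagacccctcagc
Of all windows of 50 bases in the Fcgr2b coding sequence, 17.1% also occurred in that of Fcgr3. The longest run shared by any other pair of the 5 genes was 14 bases, between Fcgr3 and Fcgr4. The paper's sequencing reads were longer than this run, so that a full-length read from it also reaches bases outside it. Only a shorter read could fall wholly within the run and be split between Fcgr2b and Fcgr3 by the counting. How many reads did so was not tested, and the levels of these 2 genes may be less certain than those of the other 3.

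By reads recovered from the deposited values, depth ran from 5105898 to 14800352 reads per tumor with a median of 6590274. The chitin- and combination-treated 66cl4 tumors were sequenced more deeply (group medians 10250227 and 8985408 reads) than the untreated and anti-PD-1-treated ones (6064018 and 6166518). Even the lowest value of a member rested on 124 reads (Fcgr4 in a 66cl4 tumor). Mammary epithelial and tumor cell markers (Epcam, Cdh1, Krt8, Krt18, Krt5 and Krt14) averaged 10.30 to 12.26 per 4T1 tumor and 7.51 to 8.61 per 66cl4 tumor on the variance-stabilized (VST) scale. VST values are log2-like expression values on which a count of 0 is 6.05, and they understate the fold of genes with few reads.

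All 5 genes were well expressed. Their mean VST value over all tumors was above that of 70.4% (Fcgr4), 78.6% (Fcgr1), 84.8% (Fcgr3), 93.6% (Fcgrt) and 97.5% (Fcgr2b) of the genes listed. To compare genes with each other, normalized counts were divided by the exon length in kilobases. In 4T1 tumors, Fcgrt averaged 575 ± 383 normalized counts per kb (SD, n = 19), Fcgr2b 536 ± 260, Fcgr4 523 ± 237, Fcgr3 480 ± 148 and Fcgr1 235 ± 94.9. The 4 upper means lay within 1 SD of each other, and Fcgr1 was the lowest. In 66cl4 tumors the order was steeper, with Fcgrt at 1283 ± 162 (SD, n = 20), Fcgr2b at 984 ± 168, Fcgr3 at 707 ± 87.9, Fcgr4 at 287 ± 135 and Fcgr1 at 242 ± 56.6. Among neighbours in that order, the ranges of mean ± SD overlapped for Fcgrt and Fcgr2b and for Fcgr4 and Fcgr1, and did not for the others.

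**Figure D1:**
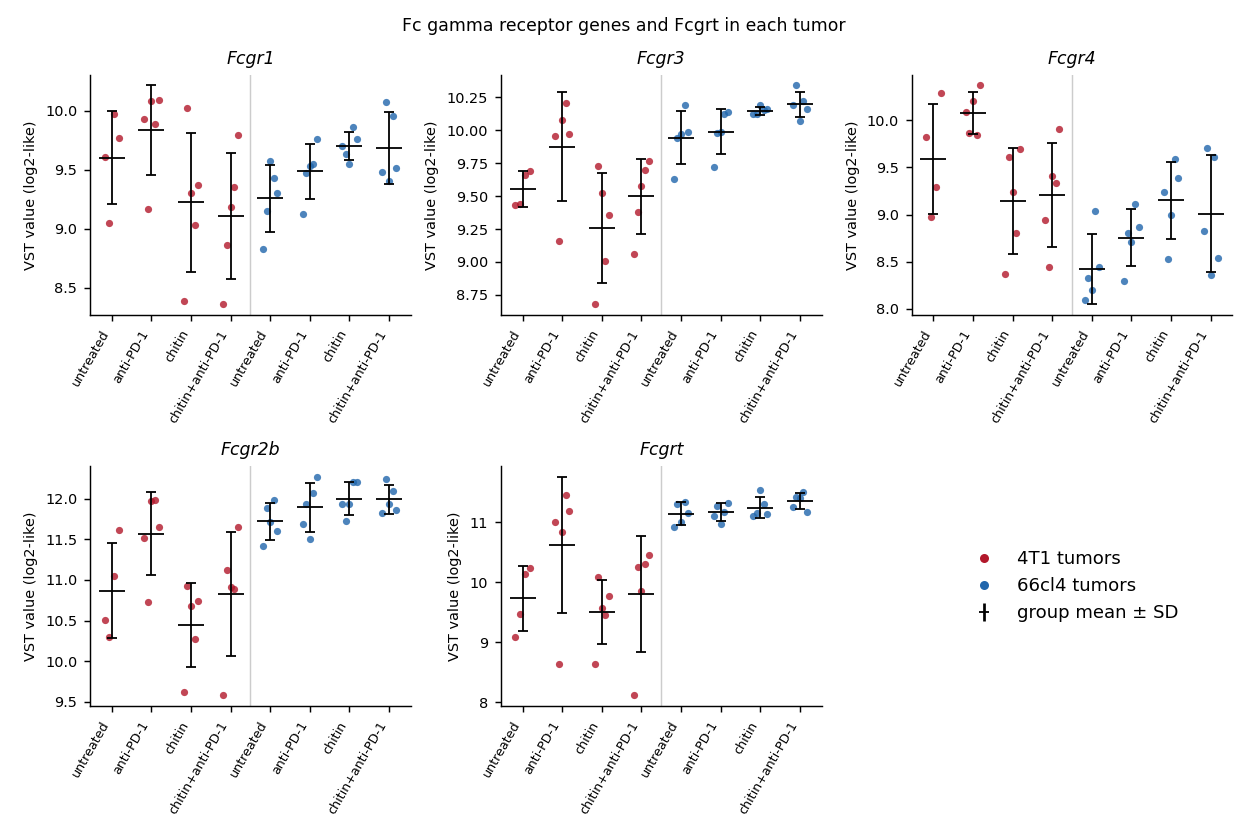
VST values (log2-like) of the 5 genes in each tumor, by model and treatment, with 1 point per tumor and the group mean ± SD in black. Fcgr2b and Fcgrt sit higher in 66cl4 (blue) than in most 4T1 tumors (red), and Fcgr4 sits higher in untreated 4T1 (mean 9.59) than in untreated 66cl4 (8.42). By SD, the 4T1 groups scatter more widely than the same groups of 66cl4, except untreated tumors for Fcgr3 and both anti-PD-1-containing groups for Fcgr4.

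How the receptors differ between the models was first asked in untreated tumors. With limma and Benjamini-Hochberg adjustment over all genes, 4 of the 5 members differed at an adjusted p under 0.05, 1 higher and 3 lower in 4T1. The models differed throughout the table, since 55.8% of all genes passed the same test (28.7% higher and 27.1% lower in 4T1), so that the number of members is read only against this share. The median difference, 4T1 minus 66cl4, was -0.39 over the 5 members and 0.02 over all genes.

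Fcgr4, the activating receptor that rose in 4T1, had VST values of 9.82, 8.97, 9.29 and 10.29 in untreated 4T1 tumors 1, 2, 4 and 5. In untreated 66cl4 tumors 1 to 5 its values were 8.09, 8.33, 8.20, 9.04 and 8.44. Of the 4T1 tumors, 3 lay above all 66cl4 tumors, and tumor 2 lay just below 66cl4 tumor 4. The difference was 1.17 (SE 0.30, adjusted p = 0.00123), and the mean normalized count was 695 ± 333 (SD, n = 4) against 233 ± 98.9 (n = 5). This call was kept under all alternatives and without any single tumor, with differences of 0.94 to 1.56.

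Fcgrt went the other way. Untreated 4T1 tumors had VST values of 9.09, 9.47, 10.13 and 10.23, and untreated 66cl4 tumors of 10.92, 11.31, 11.00, 11.34 and 11.16. The groups did not overlap, and the difference was -1.42 (SE 0.39, adjusted p = 0.00232). In normalized counts, the mean was 766 ± 315 (SD, n = 4) in 4T1 and 2147 ± 291 (n = 5) in 66cl4. B2m, its partner chain and at the same time the light chain of MHC class I, was higher in 4T1, with a difference of 1.76 (SE 0.14, adjusted p = 6.18e-13). The heavy chain and the light chain of FcRn therefore differed in opposite directions.

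The inhibitory Fcgr2b had VST values of 10.51, 10.30, 11.05 and 11.61 in untreated 4T1 and 11.42, 11.88, 11.71, 11.99 and 11.60 in untreated 66cl4. Its difference was -0.85 (SE 0.29, adjusted p = 0.0129), with 3 of the 4 4T1 tumors below all 66cl4 tumors. It no longer passed without untreated 4T1 tumor 1 (-0.74, adjusted p = 0.051) or tumor 2 (-0.66, adjusted p = 0.0708). Fcgr3 had values of 9.43, 9.44, 9.66 and 9.69 in untreated 4T1 and 9.63, 9.94, 9.97, 10.19 and 9.99 in untreated 66cl4, and differed by -0.39 (SE 0.17, adjusted p = 0.0492). This call sat at the threshold, since it was lost in 27 of the 39 fits that left out 1 tumor, with limma-voom on recovered reads (-0.45, adjusted p = 0.0633) and in 1 of 2 random draws of equal read depth (-0.34, adjusted p = 0.0675). Fcgr1, with values of 9.61, 9.05, 9.97 and 9.77 in 4T1 and 8.83, 9.15, 9.57, 9.43 and 9.30 in 66cl4, did not pass (0.35 (SE 0.25, adjusted p = 0.234)).

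Averaged over the 4 treatments, the same 4 genes passed, in a comparison in which 78.8% of all genes did. Fcgrt differed by -1.32 (SE 0.19, adjusted p = 7.67e-08), and 16 of 19 4T1 tumors lay below all 66cl4 tumors. The difference of Fcgr2b was -0.97 (SE 0.14, adjusted p = 1.08e-07), and that of Fcgr3 was -0.52 (SE 0.08, adjusted p = 4.6e-07). Fcgr4 was higher in 4T1 by 0.67 (SE 0.14, adjusted p = 7.65e-05), with 8 of 19 4T1 tumors above all 66cl4 tumors. Fcgr1 had almost the same mean in both models, 9.44 in 4T1 and 9.53 in 66cl4, and its difference of -0.09 (SE 0.12, adjusted p = 0.479) had a 95% confidence interval from -0.33 to 0.15. All of these calls were kept without any single tumor.

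Macrophage markers moved with the model as well. All 10 of 10 (Adgre1, Csf1r, Cd68, Mrc1, C1qa, C1qb, C1qc, Mertk, Lyz2 and Msr1) were lower in 4T1 in the averaged comparison, with a median difference of -1.0. Their summed normalized count ran from 8253 to 50742 in 4T1 and from 50452 to 92387 in 66cl4, and none was at 0. Neutrophil markers were higher in 4T1 for 6 of the 6 analysed here, with S100a8, S100a9, Csf3r, Cxcr2, Retnlg and Mmp8 at a median of 0.88, and T-cell markers for 5 of 6, with a median of 0.75. In bulk tumors, fewer cells of a type and less RNA per cell cannot be told apart, and the part of cell numbers in the receptor differences was not tested. Relative to the mean VST of the 10 macrophage markers, Fcgr4 stood at -1.31 ± 0.50 (SD, n = 19) in 4T1 and -3.18 ± 0.39 (n = 20) in 66cl4, with no overlap (-2.24 to -0.50 against -3.72 to -2.54). Fcgr1 stood at -1.38 ± 0.25 in 4T1 and -2.48 ± 0.16 in 66cl4, again without overlap. Fcgr3, whose level was lower in 4T1, was higher there relative to the markers, at -1.26 ± 0.26 against -1.94 ± 0.07, and its ranges did not overlap either (-1.77 to -0.41 against -2.06 to -1.80). On this scale Fcgr2b and Fcgrt differed little, at 0.12 ± 0.32 and -0.89 ± 0.45 in 4T1 against -0.11 ± 0.17 and -0.78 ± 0.16 in 66cl4. Such a subtraction takes receptor and markers to change by equal amounts. Within 4T1, however, the SD was 0.39 for Fcgr3 and 0.56 for the marker mean. The marker means also hardly overlapped between the models (9.47 to 11.53 in 4T1 and 11.51 to 12.25 in 66cl4). The part of the marker level itself in these relative values was not tested.

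The balance of activating to inhibitory receptor RNA differed accordingly. Per kb of exon, Fcgr4 amounted to a median of 0.975 of Fcgr2b in 4T1 tumors (0.327 to 1.77, n = 19) and 0.274 in 66cl4 tumors (0.166 to 0.467, n = 20). A single 4T1 tumor, combination-treated tumor 2 at 0.327, reached into the range of 66cl4. For Fcgr1, the median ratio to Fcgr2b was 0.457 in 4T1 (0.239 to 0.740) and 0.244 in 66cl4 (0.181 to 0.325). Fcgr3 had a ratio of 0.972 in 4T1 (0.660 to 1.81) and 0.713 in 66cl4 (0.590 to 0.907), with overlapping ranges. The ratios share Fcgr2b as their denominator and are given as a description.

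**Figure D2:**
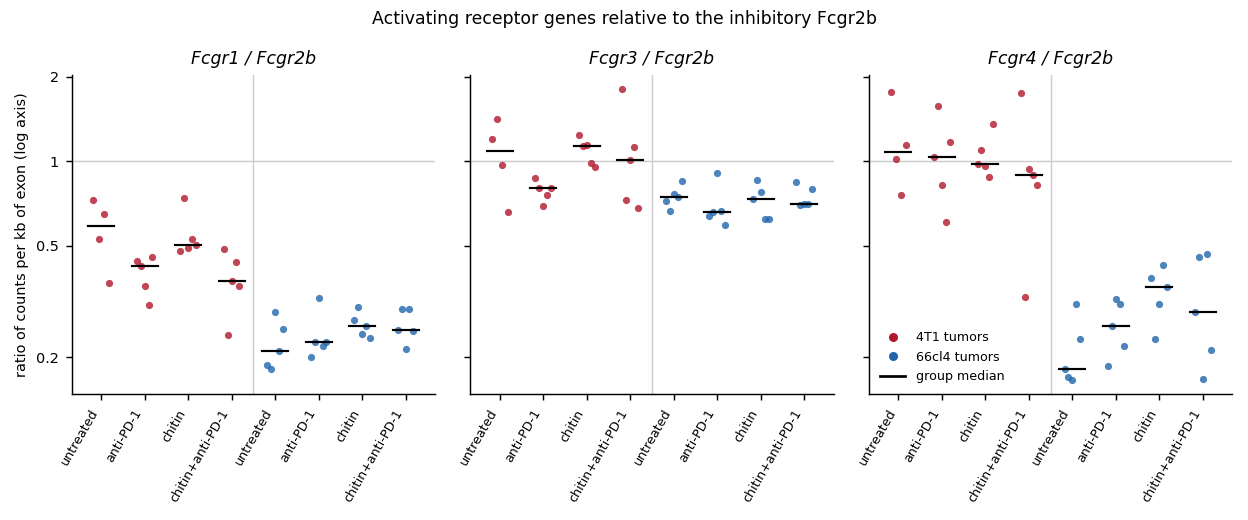
Ratio of each activating receptor gene to the inhibitory Fcgr2b, in normalized counts per kb of exon on a log axis, with 1 point per tumor and the group median as a bar. The Fcgr4 ratio lies around 1 in the 4T1 groups (medians 0.895 to 1.08) and between 0.181 and 0.357 in the 66cl4 groups.

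Whether chitin changed the receptors was asked by comparing the chitin-containing groups (chitin alone and the combination) with the other groups of the same model. In 4T1 all 5 members had a lower mean in the chitin-containing tumors and in 66cl4 all 5 had a higher mean, but 0 of 5 passed the adjusted threshold in either model. Neither did any other gene (0% of all genes), with limma and with limma-voom alike. At an unadjusted p under 0.05, 4 of 5 members were lower in 4T1, where 4.46% of all genes were, and 4 of 5 were higher in 66cl4, where 7.79% were. The median difference over the members was -0.55 in 4T1 and 0.21 in 66cl4, beside 0.00 over all genes in both.

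In 4T1, Fcgr4 had the largest of these differences. Its VST values were 8.37, 9.61, 9.24, 8.80 and 9.70 in chitin-treated and 8.94, 8.44, 9.41, 9.34 and 9.91 in combination-treated tumors. The values with anti-PD-1 were 10.09, 9.87, 10.21, 9.84 and 10.37. The anti-PD-1-treated tumors all had at least 9.84, and 4 of the 10 chitin-containing tumors lay below all 9 others. The difference was -0.66 (SE 0.21, adjusted p = 0.58), with a 95% confidence interval from -1.10 to -0.22.

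Fcgr1 had values of 8.39, 10.02, 9.30, 9.03 and 9.37 in chitin-treated and 8.36, 8.86, 9.18, 9.35 and 9.79 in combination-treated 4T1 tumors. Values in anti-PD-1-treated tumors were 9.93, 9.17, 10.08, 9.89 and 10.09. Its difference was -0.55 (SE 0.21, adjusted p = 0.606), and 4 of 10 chitin-containing tumors lay below all others, while chitin-treated tumor 2 at 10.02 was among the highest of the model. For Fcgr3, chitin-treated tumors had values of 8.68, 9.73, 9.52, 9.01 and 9.36 and combination-treated tumors of 9.06, 9.38, 9.58, 9.70 and 9.77, against 9.96, 9.16, 10.08, 10.21 and 9.97 with anti-PD-1. The difference was -0.34 (SE 0.15, adjusted p = 0.665). For both genes, the ranges of the groups overlapped.

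Fcgr2b had values of 9.62, 10.92, 10.68, 10.28 and 10.74 with chitin, 9.58, 11.12, 10.91, 10.89 and 11.65 with the combination and 11.52, 10.73, 11.97, 11.99 and 11.65 with anti-PD-1. Its difference was -0.58 (SE 0.26, adjusted p = 0.665). Fcgrt scattered most, with values of 8.63, 10.08, 9.57, 9.46 and 9.77 with chitin, 8.11, 10.25, 9.85, 10.31 and 10.46 with the combination and 11.00, 8.63, 10.83, 11.46 and 11.19 with anti-PD-1. Its difference was -0.53 (SE 0.36, adjusted p = 0.807). In normalized counts, the coefficient of variation of Fcgrt over all 4T1 tumors was 66.6%, against 12.6% over all 66cl4 tumors. Within the 4T1 groups, tumors low in 1 of these receptors tended to be low in the others, as in chitin-treated tumor 1 and combination-treated tumor 1, which held the 2 lowest values of Fcgr1 and Fcgr2b in the model.

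In 66cl4, the differences were smaller and positive. Over all tumors of the model, normalized counts scattered less than in 4T1 for Fcgr1, Fcgr2b, Fcgr3 and Fcgrt. For Fcgr4 the coefficient of variation was 47.0% in 66cl4 and 45.3% in 4T1. Fcgr4 had VST values of 9.24, 8.53, 9.0, 9.59 and 9.39 with chitin, 8.83, 9.71, 8.36, 9.61 and 8.54 with the combination and 8.29, 8.80, 8.71, 9.11 and 8.87 with anti-PD-1. The group with the combination split into 2 high tumors (2 and 4) and 3 low ones. The difference of the chitin-containing groups from the others was 0.49 (SE 0.18, adjusted p = 0.196), and 5 of 10 chitin-containing tumors lay above all 10 others.

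Fcgr1 had values of 9.70, 9.63, 9.55, 9.86 and 9.76 with chitin, 9.48, 10.07, 9.40, 9.95 and 9.51 with the combination and 9.12, 9.47, 9.53, 9.55 and 9.76 with anti-PD-1, a difference of 0.32 (SE 0.10, adjusted p = 0.152). Fcgr3 was the steadiest receptor gene, at 10.12, 10.12, 10.19, 10.15 and 10.16 with chitin, 10.19, 10.34, 10.07, 10.22 and 10.16 with the combination and 9.72, 9.98, 9.99, 10.12 and 10.14 with anti-PD-1. All 10 chitin-containing tumors had at least 10.07 for Fcgr3, and the difference was 0.21 (SE 0.06, adjusted p = 0.139). Fcgr2b had means of 11.72 ± 0.23 (SD, n = 5) in untreated, 11.90 ± 0.30 in anti-PD-1-, 12.00 ± 0.21 in chitin- and 11.99 ± 0.18 in combination-treated tumors, a difference of 0.19 (SE 0.10, adjusted p = 0.348). Fcgrt had means of 11.14 ± 0.19, 11.17 ± 0.14, 11.25 ± 0.18 and 11.36 ± 0.13 in the same order, a difference of 0.14 (SE 0.07, adjusted p = 0.316). For these 2 genes neighbouring groups differed by less than their SD.

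The chitin-containing 66cl4 groups were also the ones with more reads. With every tumor thinned to the same depth, an alternative chosen after the data were seen, the difference in 66cl4 was 0.48 for Fcgr4 (adjusted p = 0.186), 0.27 for Fcgr1 (adjusted p = 0.186) and 0.19 for Fcgr3 (adjusted p = 0.15). A second random draw of reads gave 0.48, 0.29 and 0.17 in the same order. The sizes therefore stayed close to those at full depth.

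**Figure D3:**
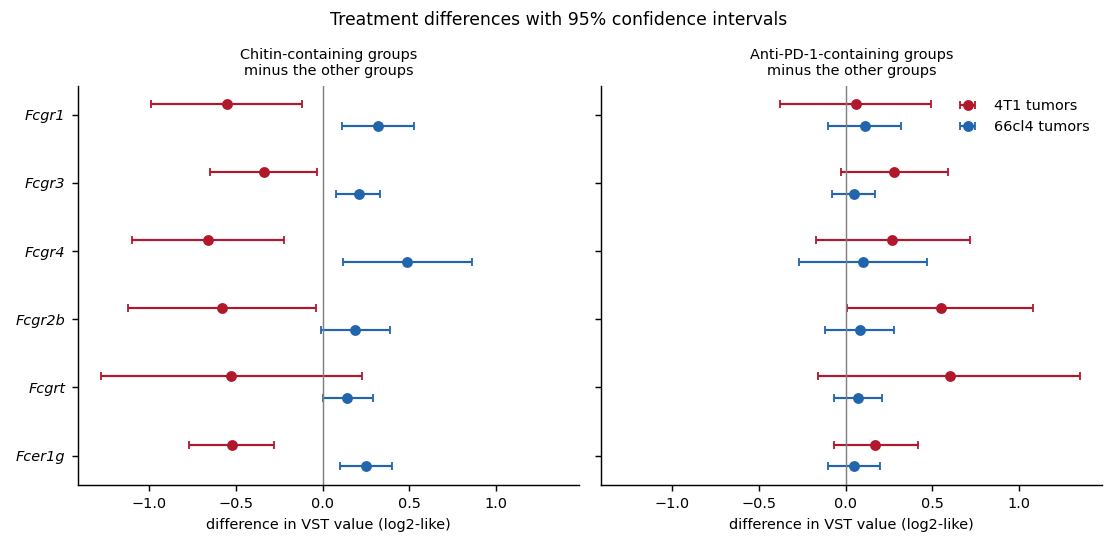
Differences in VST value (log2-like) with 95% confidence intervals for the 5 genes and Fcer1g, for chitin-containing groups (left) and anti-PD-1-containing groups (right) against the other groups of the same model. With chitin, every 4T1 point (red) lies below 0 and every 66cl4 point (blue) above 0, with members from -0.66 (Fcgr4) to -0.34 (Fcgr3) in 4T1 and from 0.14 (Fcgrt) to 0.49 (Fcgr4) in 66cl4, and no gene passed the adjusted threshold within a model.

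The opposite signs in both models were tested directly as the difference between the 2 chitin effects. None of the 5 members passed, in a comparison in which 0.0978% of all genes (14 of 14318, 11 of them lower) did. Fcgr4 came closest, with a difference of -1.15 (SE 0.29, adjusted p = 0.0767) and a 95% confidence interval from -1.73 to -0.57, followed by Fcgr1 with -0.87 (SE 0.23, adjusted p = 0.0825). The values were -0.54 (SE 0.16, adjusted p = 0.104) for Fcgr3, -0.77 (SE 0.28, adjusted p = 0.2) for Fcgr2b and -0.67 (SE 0.37, adjusted p = 0.45) for Fcgrt. At an unadjusted p under 0.05, 4 of 5 members were lower in 4T1, against 7.66% of all genes. The common gamma chain Fcer1g, the partner of the 3 activating receptors, was 1 of the 14 genes that passed, with a difference of -0.77 (SE 0.14, adjusted p = 0.0222). Its VST values were 9.12, 8.95, 9.31 and 9.30 in untreated 4T1, 9.36, 9.09, 9.53, 9.41 and 9.57 with anti-PD-1, 8.08, 9.08, 8.84, 8.57 and 8.91 with chitin and 8.50, 8.72, 8.92, 8.82 and 9.14 with the combination. Of the 10 chitin-containing 4T1 tumors, 8 lay below all 9 others. The call of Fcer1g was lost without untreated 4T1 tumor 5 (-0.75, adjusted p = 0.0639), when 0 genes passed, and was kept in the other 38 fits that left out 1 tumor. In 66cl4, the means of Fcer1g were 9.25 ± 0.29, 9.41 ± 0.10, 9.61 ± 0.08 and 9.54 ± 0.13 (SD, n = 5) in untreated, anti-PD-1-, chitin- and combination-treated tumors, respectively.

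Single 4T1 tumors decided whether members passed this last test. Without anti-PD-1-treated tumor 2, 4 of 5 passed, with adjusted p-values of 0.0136 for Fcgr1 (-0.95), 0.0484 for Fcgr2b (-0.88), 0.0091 for Fcgr3 (-0.63) and 0.018 for Fcgr4 (-1.18). Without chitin-treated tumor 2, Fcgr1 (-0.97, adjusted p = 0.028), Fcgr3 (-0.60, adjusted p = 0.0431) and Fcgr4 (-1.21, adjusted p = 0.0328) passed. Without untreated tumor 2, Fcgr1 (-0.96, adjusted p = 0.0464) and Fcgr4 (-1.25, adjusted p = 0.0414) did so. The same pair passed without combination-treated tumor 5 (-0.96, adjusted p = 0.0256 for Fcgr1, and -1.24, adjusted p = 0.0215 for Fcgr4). Without chitin-treated tumor 5 it was Fcgr4 alone (-1.22, adjusted p = 0.042). Leaving out any other tumor gave 0 of 5.

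Cell type markers were set beside these differences. In the difference between models, 10 of 10 macrophage markers had a negative value (median -0.69, 6 at an unadjusted p under 0.05), as did 6 of 6 T-cell markers (median -0.62, 6 at an unadjusted p under 0.05), 6 of 6 dendritic cell markers (median -0.57, 5 at that level) and the leukocyte marker Ptprc (-0.74). No marker passed the adjusted threshold. Summed macrophage markers had medians of 28495 normalized counts in untreated, 45591 in anti-PD-1-, 22891 in chitin- and 32092 in combination-treated 4T1 tumors, with ranges of 23177 to 44689, 17506 to 50742, 13536 to 37729 and 8253 to 33487. In 66cl4 these medians were 76763, 77929, 83987 and 87510, in the same order. Relative to the mean of the macrophage markers, Fcgr1 in 4T1 stood at -1.32 ± 0.32, -1.40 ± 0.14, -1.27 ± 0.22 and -1.51 ± 0.30 (SD) in the 4 groups, and Fcgr3 at -1.37 ± 0.28, -1.36 ± 0.14, -1.23 ± 0.08 and -1.12 ± 0.41. Fcgr4 stood at -1.33 ± 0.73, -1.16 ± 0.41, -1.35 ± 0.33 and -1.41 ± 0.62. In 66cl4, Fcgr4 stood at -3.43 ± 0.30, -3.25 ± 0.18, -2.93 ± 0.39 and -3.10 ± 0.52. Fcgr1 stood there at -2.60 ± 0.15, -2.52 ± 0.10, -2.38 ± 0.11 and -2.43 ± 0.21, and Fcgr3 at -1.91 ± 0.07, -2.01 ± 0.05, -1.93 ± 0.08 and -1.92 ± 0.03. The 4 ranges overlapped for each of these genes in both models. The part of macrophage and T-cell numbers in the chitin differences was not tested.

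Anti-PD-1 was examined in the same way, since the antibody is itself an IgG. In 4T1, the members had mean differences of 0.06 (Fcgr1), 0.27 (Fcgr4), 0.28 (Fcgr3), 0.55 (Fcgr2b) and 0.60 (Fcgrt) between the anti-PD-1-containing groups and the others, all with adjusted p-values from 0.713 to 0.964. None of the 5 passed, nor did any other gene (0% of all genes) with limma or limma-voom. At an unadjusted p under 0.05, Fcgr2b alone was higher in 4T1, where 3.65% of all genes were. At the same level, 6 of 6 neutrophil markers (median 0.62) and 3 of 4 B-cell markers (median 0.46) were higher, as were 1 of 6 T-cell and 0 of 10 macrophage markers. The neutrophil markers were high mostly with the combination (mean VST 8.70, against 8.07 with anti-PD-1 alone, 7.93 untreated and 7.64 with chitin). The B-cell markers were high mostly with anti-PD-1 alone (7.38, against 6.50 with the combination, 6.45 untreated and 6.53 with chitin). The part of these cells in the result was not tested. In 66cl4 the differences ran from 0.05 to 0.11 with an adjusted p of 0.998 for each gene, and no member had an unadjusted p under 0.05 (1.67% of all genes were higher at that level). The 95% confidence intervals in 66cl4 lay between -0.12 and 0.28 for Fcgr2b, Fcgr3 and Fcgrt, and ran from -0.10 to 0.32 for Fcgr1 and from -0.27 to 0.47 for Fcgr4.

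Against untreated 4T1 tumors, anti-PD-1 monotherapy gave the largest rises of means, 0.89 (SE 0.52, adjusted p = 0.62) for Fcgrt and 0.71 (SE 0.37, adjusted p = 0.586) for Fcgr2b, with 4 of 5 and 3 of 5 treated tumors above all untreated ones. Fcgr4 differed by 0.48 (SE 0.31, adjusted p = 0.648), Fcgr3 by 0.32 (SE 0.22, adjusted p = 0.667) and Fcgr1 by 0.23 (SE 0.30, adjusted p = 0.838). Anti-PD-1-treated tumor 2 was the lowest of its group for Fcgr1, Fcgr2b, Fcgr3 and Fcgrt, and for Fcgrt it stood at 8.63 while the others had 10.83 to 11.46. Without it, the difference was 1.39 for Fcgrt (adjusted p = 0.099), 0.92 for Fcgr2b (adjusted p = 0.191), 0.50 for Fcgr3 (adjusted p = 0.164), 0.53 for Fcgr4 (adjusted p = 0.399) and 0.39 for Fcgr1 (adjusted p = 0.51), and none passed. No cell type marker passed the adjusted threshold in this comparison, but several were higher at an unadjusted p under 0.05, as were 4.52% of all genes. B-cell markers had a median difference of 0.96 (4 of the 4 analysed here at that level), T-cell markers of 0.67 (5 of 6) and dendritic cell markers of 0.65 (4 of 6). Macrophage markers had a median of 0.39, with 9 of 10 higher, none of them at that level, and 1 lower at that level. The part of these cells in the receptor differences was not tested. In 66cl4, anti-PD-1 monotherapy differed from untreated tumors by 0.03 (Fcgrt) to 0.34 (Fcgr4), with adjusted p-values from 0.911 to 0.983. The anti-PD-1 effects of the models did not differ for any member either (adjusted p from 0.875 to 0.986, with 0.00698% of all genes passing).

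The single chitin-containing groups were also set against untreated tumors. In 4T1, chitin alone differed from untreated tumors by -0.23 (Fcgrt) to -0.45 (Fcgr4), and the combination by -0.50 for Fcgr1, -0.39 for Fcgr4, -0.06 for Fcgr3, -0.03 for Fcgr2b and 0.07 for Fcgrt, all with an adjusted p of 1.0. The pooled chitin difference in 4T1 also holds the step from anti-PD-1 alone to the combination, which was not tested by itself. Those means went from 9.83 to 9.11 for Fcgr1, from 11.57 to 10.83 for Fcgr2b and from 9.88 to 9.50 for Fcgr3. For Fcgr4 they went from 10.08 to 9.21 and for Fcgrt from 10.62 to 9.80. In 66cl4, chitin differed from untreated tumors by 0.73 for Fcgr4, 0.44 for Fcgr1, 0.28 for Fcgr2b, 0.21 for Fcgr3 and 0.10 for Fcgrt (adjusted p from 0.236 to 0.729). The combination gave 0.59, 0.43, 0.27, 0.25 and 0.21, in the same order of genes (adjusted p from 0.328 to 0.489). Both treated groups share the untreated tumors, so that their likeness is no independent support. In each of these 66cl4 comparisons, 4 of 5 members were higher at an unadjusted p under 0.05, against 6.17% of all genes with chitin and 5.77% with the combination.

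The receptors varied together from tumor to tumor within groups. After centring on the group means, the 10 pairs of members had Pearson correlations from 0.38 to 0.89 over the 19 4T1 tumors and from 0.31 to 0.79 over the 20 66cl4 tumors. By permutation within treatment groups (two-sided, 100000 resamples, adjusted over 20 relations), 9 of 10 pairs passed in 4T1 and 8 of 10 in 66cl4, with Pearson's r and with Spearman's rho alike. The share of other gene pairs that would pass was not determined, so that these counts do not set the receptors apart from other genes. The highest was Fcgr1 with Fcgr3, at r = 0.89 (permutation p = 5e-05, adjusted p = 0.000333, and Spearman 0.80, permutation p = 0.00028) in 4T1 and r = 0.79 (permutation p = 0.00053, adjusted p = 0.00118, and Spearman 0.81, permutation p = 0.00019) in 66cl4, and r = 0.83 and 0.65 without the 2 tumors farthest from the median of Fcgr1. In 4T1, Fcgr2b with Fcgrt was as high at r = 0.89 (permutation p = 0.0001, adjusted p = 0.000333, and Spearman 0.83, permutation p = 0.00011), and 0.83 without the 2 farthest tumors. Fcgr4 with Fcgrt was the weakest pair of 4T1 and did not pass in either model, with r = 0.38 (permutation p = 0.0965, adjusted p = 0.102, and Spearman 0.43, permutation p = 0.0719) and r = 0.42 (permutation p = 0.0804, adjusted p = 0.0893, and Spearman 0.44, permutation p = 0.0654). Fcgr1 with Fcgrt did not pass in 66cl4 (r = 0.31, permutation p = 0.218, adjusted p = 0.218, and Spearman 0.28, permutation p = 0.282). Fcgr2b and Fcgr3, which share coding sequence, had r = 0.85 in 4T1 (permutation p = 1e-05, the smallest these resamples can give, adjusted p = 0.0002, and Spearman 0.84, permutation p = 9e-05) and 0.67 in 66cl4 (permutation p = 0.004, adjusted p = 0.00615, and Spearman 0.68, permutation p = 0.00351).

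The receptors were also set beside cell type markers, after the same centring on group means. As a description, with both values taken from the same libraries, Fcgr3 followed the mean of the 10 macrophage markers with r = 0.89 in 4T1 (n = 19) and 0.91 in 66cl4 (n = 20), and Fcgr1 with 0.88 and 0.83. Fcgr2b had r = 0.87 and 0.62, and Fcgrt had 0.92 and 0.44. Fcgr4 had r = 0.44 in 4T1, the lowest of the 5 genes there, and 0.64 in 66cl4, where Fcgr2b and Fcgrt had lower values. With the mean of the 6 T-cell markers (Cd3d, Cd3e, Cd3g, Cd4, Cd8a and Cd8b1), r in 4T1 was 0.89 for Fcgr4, 0.82 for Fcgr1, 0.77 for Fcgr2b, 0.71 for Fcgr3 and 0.57 for Fcgrt. In 66cl4 it was 0.83 for Fcgr4, 0.60 for Fcgr2b, 0.56 for Fcgrt, 0.51 for Fcgr3 and 0.49 for Fcgr1. Neutrophil markers, although neutrophils can carry Fcgr4, gave r = 0.13 in 4T1 and -0.18 in 66cl4 with it. These correlations were not compared with each other by a test.

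**Figure D4:**
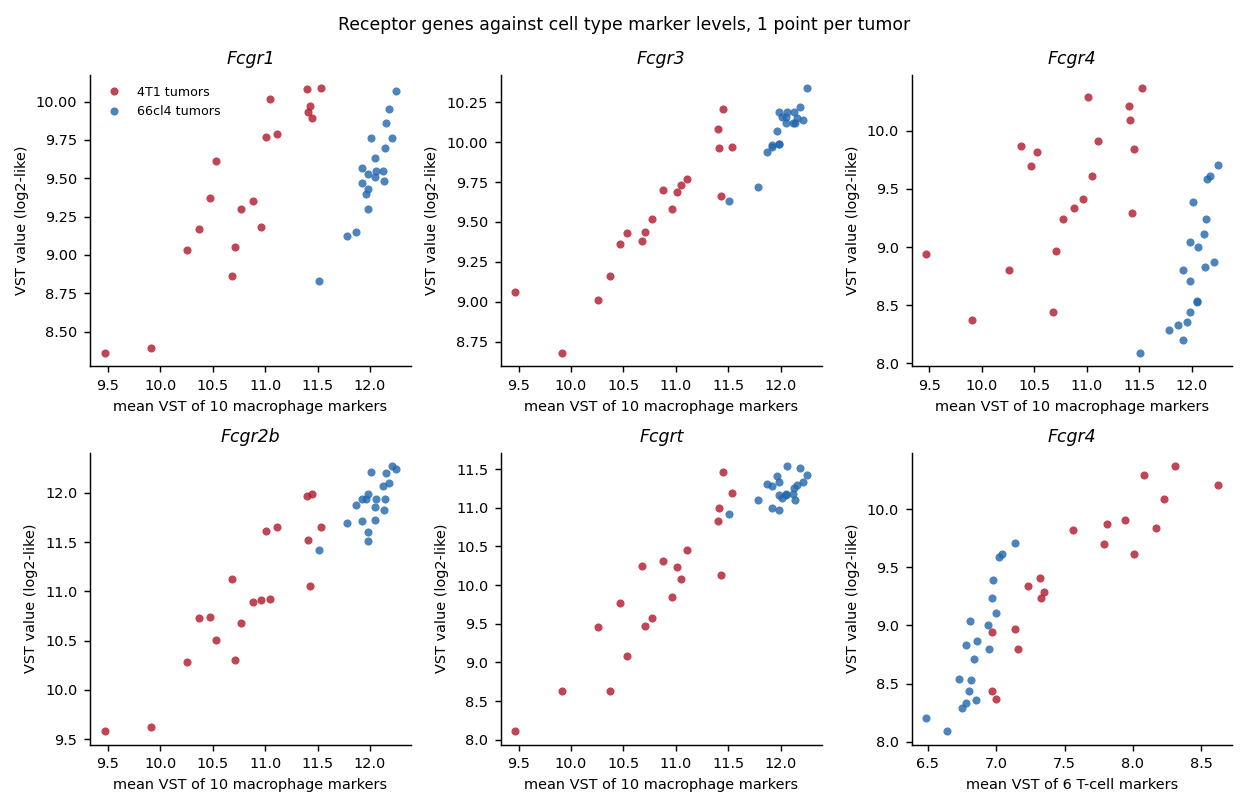
VST values (log2-like) of the 5 genes against the mean VST value of the 10 macrophage markers, and of Fcgr4 against the mean of the 6 T-cell markers (last panel), with 1 point per tumor. Within each model, Fcgr3 rises with the macrophage markers (group-centred r = 0.89 in 4T1, red, and 0.91 in 66cl4, blue). The macrophage marker means hardly overlap, at 9.47 to 11.53 in 4T1 and 11.51 to 12.25 in 66cl4. The models can therefore not be compared at the same macrophage marker level.

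The genes closest to each receptor, by Pearson correlation over all 39 tumors after centring on the 8 group means, were named without a test. Fcgr1 was closest to Pld4 (0.93), Lair1 and Ms4a6b (0.91 each). Lair1 encodes an inhibitory collagen receptor of leukocytes. Among the 3 genes closest to Fcgr2b were Sema4a and Rassf2 (0.92 each). Fcgr3 was closest to C1qa (0.93) and C1qb (0.92), complement genes made by macrophages, and Hfe (0.92). Fcgr4 was closest to Serpina3g (0.87), Slamf8 and H2-DMa (0.86 each), the last of which encodes a chain of the MHC class II peptide loading complex. Fcgrt was closest to Selenop and Ccdc152 (0.96 each), whose genes overlap on opposite strands, and the lysosomal Hexa (0.93). In 66cl4 alone the correlations of Fcgrt with Selenop and Ccdc152 were 0.75 and 0.73, against 0.97 in 4T1.

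Genes that act with or after the receptors were also followed as whole lists. Of 20 Fc receptor signalling genes, all analysed here, 2 were higher and 12 lower in 4T1 than in 66cl4 averaged over treatments, with a median difference of -0.28 beside 0.01 over all genes and 40.8% and 38% of all genes passing upwards and downwards. The 2 higher ones were Plcg2 at 1.58 (SE 0.09, adjusted p = 5.07e-18), a phospholipase, and the kinase gene Src at 0.91 (SE 0.06, adjusted p = 7.6e-16). The largest falls were Pik3r5 at -1.04 (SE 0.08, adjusted p = 3.52e-14), a regulatory subunit of PI3-kinase gamma, and the adaptor genes Dok2 at -0.85 (SE 0.08, adjusted p = 1.07e-11) and Blnk at -0.73 (SE 0.08, adjusted p = 4.13e-10). Fcer1g itself was lower in 4T1 by -0.43 (SE 0.07, adjusted p = 9.09e-07). Of 14 genes of phagocytosis and the phagocyte oxidase, 1 was higher and 9 lower, with a median of -0.39. Cyba, an oxidase subunit, was the higher one at 0.28 (SE 0.06, adjusted p = 0.00019), and Dock2 (-0.79, SE 0.11, adjusted p = 8.35e-08), Rac2 (-0.57, SE 0.10, adjusted p = 4e-06) and Myo1f (-0.57, SE 0.11, adjusted p = 1.98e-05) had the largest falls.

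Of 13 other Fc receptor genes, 6 were analysed here, of which 3 were higher and 2 lower in 4T1. Pigr, the epithelial transporter of polymeric immunoglobulin, was higher at 1.33 (SE 0.18, adjusted p = 3.78e-08), as were Fcrlb at 0.56 (SE 0.06, adjusted p = 3.98e-11) and Trim21, the cytosolic antibody receptor, at 0.26 (SE 0.05, adjusted p = 5.38e-05). Fcrls, listed under the symbol Fcrl2, was lower at -2.39 (SE 0.13, adjusted p = 2.08e-18), the largest difference of this list, and Fcrl6 at -0.59 (SE 0.07, adjusted p = 3.67e-09). Of 9 immunoglobulin chain genes, only Jchain was analysed here, and it was higher in 4T1 at 1.76 (SE 0.32, adjusted p = 9.21e-06). The light chain B2m was higher in every 4T1 tumor than in any 66cl4 tumor, with a difference of 1.59 (SE 0.07, adjusted p = 1.44e-21).

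The same lists had signs like those of the members in the chitin comparisons. In 4T1, 17 of 20 signalling genes and 14 of 14 phagocytosis genes had a lower mean in the chitin-containing groups (11 and 9 at an unadjusted p under 0.05, where 4.46% of all genes were lower), and none passed after adjustment. In 66cl4, 17 of 20 and 14 of 14 had a higher mean (8 and 7 at an unadjusted p under 0.05, where 7.79% of all genes were higher), and again none passed. In the difference between models, 2 of 20 signalling genes passed, both lower in 4T1 and 1 of them Fcer1g, and 0 of 14 phagocytosis genes did, with 12 of each at an unadjusted p under 0.05 and lower. Of all genes, 0.0978% passed and 7.66% were lower at the unadjusted level. Median differences there were -0.43 and -0.53, beside 0.01 over all genes.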

How the data were processed

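RNA was isolated by the authors from flash-frozen primary tumors, and stranded libraries were sequenced. The authors aligned the reads to mm10 with HISAT2, counted them per gene and strand with summarizeOverlaps (intersection non-empty), dropped genes that did not exceed 10 reads in 10% of the tumors, and applied the variance stabilizing transformation (VST) of DESeq2. The deposited values are therefore on a log2-like scale, normalized by the authors with 1 size factor per tumor. The annotation used for counting and the tool versions are not given in the sources used here. Untreated 4T1 tumor 3, removed by the authors for degraded RNA, was not analysed here.

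The lowest deposited log2-like value, 6.05, stands for a count of 0. With it, the transformation was inverted, which gave whole reads for 100% of the values within 0.001 reads. These reads served to describe depth, normalized counts and counts per kb of exon (GENCODE basic exons), for limma-voom and for thinning. Group means of the VST values as deposited were fitted in R 4.3.3 with limma 3.58.1 (lmFit, contrasts.fit, and eBayes with a trend). The 4 groups of a model were fitted together, and all 8 groups for comparisons across models. Benjamini-Hochberg adjustment covered all 14318 genes, and the threshold was 0.05. The procedure was tested on simulated data. Spread between tumors is the error given throughout. Since PCR copies of a molecule cannot be recognised in these reads, no counting intervals are given.

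The 5 genes and all gene lists were chosen with earlier results of these data known. Named beside them are Fcer1g, B2m and Fcrls, up to 3 genes per list in either direction, chosen as the most changed among those that passed between the models averaged over treatments, and the 3 genes with the highest Pearson r to each member over all tumors after centring on group means. Any other gene is said to be named after its values were seen. A few genes that these rules select are left out of the text by name. Lists were matched by symbol or RefSeq name. The alternatives left out the lowest 25% of genes by mean (low filter) or used no trend, only the compared groups, quantile normalization, weights per tumor, the tumor number as a block, limma-voom, leaving out each tumor and, added after the data were seen, equal read depth (5105898 reads, with 2 random draws). Sequences were taken from RefSeq (promoters, GRCm38.p6) and GENCODE vM21 (coding sequences). Other tools were numpy 2.4.6, pandas 2.3.3, scipy 1.17.1 and matplotlib 3.10.9 in Python 3.11.15.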

Additional observations from a re-analysis of the deposited data

Results flagged for a closer look

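Each of the 5 genes was checked for a tumor far from the others of its group, in all 8 groups. Of 40 such groups, 4 held one by Dixon's criterion, where chance gives about 1 in 20 if the checks are independent. They are not, since the genes vary together over the same tumors, so that the number is given as a description.

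In anti-PD-1-treated 4T1, tumor 2 stood apart below the others for 3 genes. It had 9.17 for Fcgr1, while the other 4 tumors had 9.89 to 10.09. For Fcgr3 it had 9.16, while the others had 9.96 to 10.21. For Fcgrt it had 8.63, while the others had 10.83 to 11.46. In chitin + anti-PD-1-treated 4T1, tumor 1 had 8.11 for Fcgrt, and the other 4 had 9.85 to 10.46. Both tumors also had the lowest mean of the 10 macrophage markers in their group, 10.37 and 9.47. All values are on the VST scale.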

How the results depend on the processing

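The calls of Fcgr2b, Fcgr3, Fcgr4 and Fcgrt between models averaged over treatments, and of Fcgr4 and Fcgrt in untreated tumors, passed under every alternative run. In untreated tumors, 4 members passed, and 2 to 4 when each tumor was left out (2 without untreated 4T1 tumor 1 or 2).

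The difference between the chitin effects of the models, with 0 members, moved most. It had 5 members with tumor weights and 0 to 4 when tumors were left out. Over all genes (14), it had 8 with the low filter, 39 with quantile normalization, 31 with equal read depth, 1004 with tumor weights and 0 to 677 without 1 tumor. Tumor weights also gave 1 member (Fcgr4, -0.70, adjusted p = 0.0493) and 297 genes for the chitin-containing 4T1 groups, 1 member (Fcgrt, 1.36, adjusted p = 0.0328) and 960 genes for anti-PD-1 against untreated 4T1, 41 genes for the anti-PD-1-containing 4T1 groups, 35 for the anti-PD-1 effects between models (2 with quantile normalization) and 185 for the chitin-containing 66cl4 groups. Without 1 tumor, these counts ran from 0 to 1, 0 to 80, 0 to 13, 1 to 15 and 0 to 269, and from 0 to 25 and 0 to 3 for chitin and chitin + anti-PD-1 against untreated 66cl4. The highest counts came without anti-PD-1-treated 4T1 tumor 2 (677, 80, 15 and 13) or untreated 66cl4 tumor 3 (269 and 25). Both draws of equal read depth gave 0 genes for the anti-PD-1 effects between models (1 as reported). The second draw gave 21 genes for the chitin-containing 66cl4 groups, where the first gave 0, and 18 instead of 31 for the chitin effects between models, so that these counts near the threshold depended on the draw. The cause was not tested.

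Differences near 0 changed sign. For Fcgr1, the anti-PD-1 effects between models gave 0.0853 with tumor weights and -0.15 to 0.0493 without 1 tumor, and the anti-PD-1-containing 4T1 groups -0.0476 to 0.16. For chitin + anti-PD-1 against untreated 4T1, Fcgr2b gave 0.0119 with quantile normalization, 0.0698 with tumor weights and -0.24 to 0.28 without 1 tumor, Fcgr3 0.0002 with tumor weights and -0.13 to 0.0497, and Fcgrt -0.14 to 0.49. Fcgr4 gave -0.0088 with tumor weights in the anti-PD-1-containing 66cl4 groups. For anti-PD-1 against untreated 66cl4, Fcgr3 gave -0.0315 to 0.11 and Fcgrt -0.0289 to 0.0779. All of these missed the threshold.

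Whether tumor numbers pair the tumors was not settled. Same-numbered tumors correlated above 0.1 in 12 of 27 pairs in 4T1 (median 0.02, -0.47 to 0.47) and 15 of 30 in 66cl4 (median 0.09, -0.46 to 0.56). In 4T1, 5 of 19 tumors were closest to their own number, and in 66cl4 9 of 20 were. These shares were not tested against chance. With the tumor number as a replicate block, 2 members (Fcgr1 and Fcgr4) and 176 genes passed for the chitin effects between models, Fcgr3 was lost between untreated models (-0.34, adjusted p = 0.0714), and 16, 2, 7 and 1 genes passed for the chitin-containing 66cl4 groups, chitin and chitin + anti-PD-1 against untreated 66cl4, and chitin + anti-PD-1 against untreated 4T1.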
